A study of Mus musculus with 6 samples.

Results

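Arntl, Npas2, Clock, Nfil3, Cry1 and Cry2 were followed as a set of circadian clock genes: the activators Arntl, Npas2 and Clock, the repressor Nfil3 and the cryptochromes Cry1 and Cry2. The set was grouped as genes that share the phase of Arntl, but the values of Cry2 went against that name. They were chosen by gene name, with earlier results of the same libraries in view, and are 6 of the 21700 genes in the table. The libraries were made from biliary epithelial cells, which line the bile ducts, of female C57BL/6 mice of wild-type genotype. The non-pregnant group had 3 libraries and the pregnant group, taken at dpc8 (8 days post coitum), also had 3. The cells were sorted by flow cytometry from enzyme-digested livers after slow centrifugation had removed the parenchymal fraction. The sorting antibodies, the age of the mice, how many animals went into a library and the hour of collection are not stated in the labels.

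In the mammalian clock, ARNTL (also called BMAL1) pairs with CLOCK or its paralog NPAS2, and the pair binds E-boxes and switches on the Per and Cry genes. PER and CRY proteins then repress the pair, which closes a daily loop. The nuclear receptors REV-ERB (Nr1d1, Nr1d2) and ROR compete at sites in genes such as Arntl, and NFIL3 represses at D-boxes where DBP activates. In liver the RNA of Arntl and Npas2 and that of Dbp and the Per genes are known to peak at opposite times of day.

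The level of a gene is given as FPKM, fragments per kilobase of exon at a common sequencing depth. Levels can be compared between genes as far as the exon length used fits the transcripts made. Libraries held between 25047887 and 35083751 recovered fragments, and 11412 genes averaging 1 FPKM or more were tested, among them all 6 of the set. Each of the 6 was above 1 FPKM in every library. The labels do not say whether each library came from its own animal or animals, so the spread between libraries may be partly or wholly technical. The p-values set the group difference against that spread. Non-pregnant library 3, which the sample descriptions number 4, had the highest value for 35.8% of the tested genes and the lowest for 28.5%.

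The regions around the transcription starts are shown first, because the genes that varied together differ in which clock-related letters they hold there. RefSeq windows (build GRCm38.p6, 250 bases before to 50 after a start) matched all 6 genes, with 9 windows. Searched on both strands were the E-box CACGTG, its variant CACGTT, the ROR and REV-ERB site core as AGGTCA and as TAGGTCA (the second contains the first), and the D-box core as TTATGTA or as TTATGCA. Capitals mark the match, and each line is written 5′ to 3′ on the strand of the gene.
Arntl, chr7:113207530-113207559, plus strand: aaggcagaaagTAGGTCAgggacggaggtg
Nfil3, chr13:52981033-52981062, minus strand: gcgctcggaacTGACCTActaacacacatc
Cry2, chr2:92434217-92434246, minus strand: cacatggtgggAACGTGagggggcggagcc
Cry1, chr10:85185055-85185304, minus strand: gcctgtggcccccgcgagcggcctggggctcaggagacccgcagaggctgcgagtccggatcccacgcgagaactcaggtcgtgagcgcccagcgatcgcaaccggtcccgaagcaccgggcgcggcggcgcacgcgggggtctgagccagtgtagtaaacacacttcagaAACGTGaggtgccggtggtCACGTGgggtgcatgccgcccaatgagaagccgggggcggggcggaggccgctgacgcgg

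Arntl and Nfil3 held TAGGTCA, Nfil3 on the opposite strand, and 2.61% of all 32851 windows of that length held it. In Arntl the match lay 30 to 36 bases past the later of its 2 starts, in the transcribed part, and in Nfil3 12 to 6 bases before the start. Cry1 was the 1 gene of the set with CACGTG, 60 to 55 bases before its start, where 7.15% of all windows held it. The variant CACGTT stood on the opposite strand in Cry1 and in Cry2, as in 4.69% of all windows. AGGTCA was also found in 1 of the 3 windows of Clock (16.3% of all windows), and neither D-box core was found in the 6 genes (2.63% and 2.34% of all windows). The 1 window of Npas2 held no match to any of the letters searched. A match is a description of letters, not of a bound site.

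Arntl (ENSMUSG00000055116, mm10 chromosome 7, 113207465 to 113314126) encodes the main partner of CLOCK and NPAS2 in the activating complex. It stood at 8.47, 3.61 and 18.3 FPKM for the non-pregnant group (libraries 1, 2 and 3) and at 7.06, 4.83 and 1.84 FPKM for the pregnant group (libraries 1, 2 and 3). Non-pregnant library 3 was highest and pregnant library 3 lowest, and the groups overlapped, since non-pregnant library 2 lay below pregnant libraries 1 and 2. The group means were 10.1 ± 7.46 and 4.58 ± 2.62 FPKM (SD, n = 3 each), so their difference was smaller than the SD of the non-pregnant group. The log2 change, pregnant minus non-pregnant on the log2(FPKM + 1) scale, was -0.88 ± 0.539 (SE). It was -0.37 without non-pregnant library 3, and dropping non-pregnant library 2 made it -1.40. Its exons share 33 bases, 0.439% of their length, with the antisense gene Gm45355.

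Npas2 (ENSMUSG00000026077, chromosome 1, 39193731 to 39363236) encodes a partner of ARNTL that can stand in for CLOCK. Its values were 9.15, 3.13 and 16.02 FPKM for the non-pregnant group (libraries 1, 2 and 3) and 7.70, 5.44 and 1.94 FPKM for the pregnant group (libraries 1, 2 and 3). The 6 libraries stood in the same order as for Arntl, with non-pregnant library 3 on top and pregnant library 3 at the bottom, an order found for 0.903% of all tested genes. The means were 9.43 ± 6.45 and 5.03 ± 2.91 FPKM (SD, n = 3 each), again closer than the SD of the non-pregnant group. The log2 change was -0.70 ± 0.549 (SE), and -0.24 without non-pregnant library 3.

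Clock (ENSMUSG00000029238, chromosome 5, 76209868 to 76304792), the other partner of ARNTL, varied much less. It stood at 6.30, 4.95 and 8.41 FPKM for libraries 1, 2 and 3 of the non-pregnant group and at 6.47, 6.44 and 5.29 FPKM for those of the pregnant group. The pregnant values lay inside the range of the non-pregnant ones, whose highest was again library 3. Means were 6.55 ± 1.74 and 6.07 ± 0.672 FPKM (SD, n = 3 each), with a log2 change of -0.08 ± 0.163 (SE) that was 0.10 without non-pregnant library 3 and 0.01 without pregnant library 3.

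**Figure D1:**
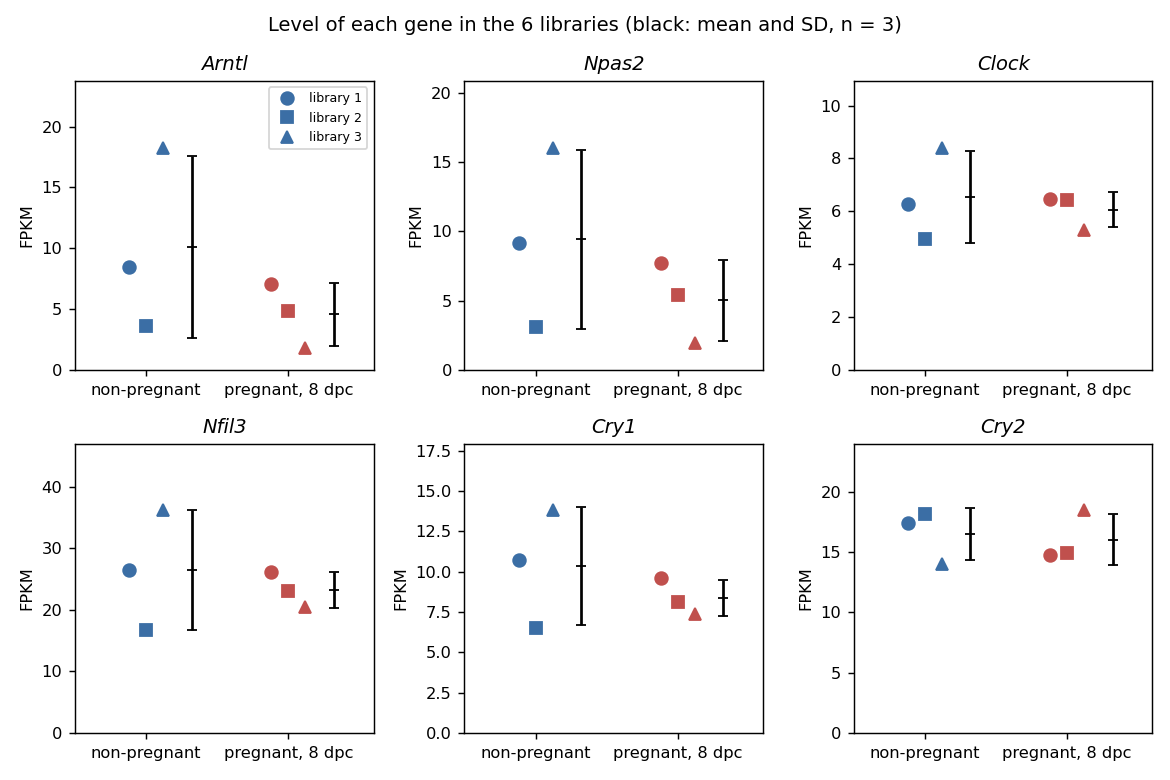
Level in FPKM (vertical axes, linear from 0) of Arntl, Npas2, Clock, Nfil3, Cry1 and Cry2 in the non-pregnant (blue) and pregnant (red) groups; the marker shape gives the library number in both groups and the black bars the mean and SD of 3 libraries. Non-pregnant library 3 is the highest point in 5 of the 6 panels and the lowest in the panel of Cry2, at 14.0 FPKM.

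Cry1 (ENSMUSG00000020038, chromosome 10, 85131700 to 85185064) encodes a cryptochrome that represses the ARNTL complexes late in their cycle. Values were 10.7, 6.49 and 13.8 FPKM for libraries 1, 2 and 3 of the non-pregnant group and 9.59, 8.14 and 7.38 FPKM for those of the pregnant group. The pregnant libraries lay inside the non-pregnant range, and non-pregnant libraries 3 and 2 were the highest and the lowest. Means were 10.3 ± 3.67 and 8.37 ± 1.121 FPKM (SD, n = 3 each), and the log2 change of -0.23 ± 0.228 (SE) was -0.01 without non-pregnant library 3.

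Cry2 (ENSMUSG00000068742, chromosome 2, 92403646 to 92434043), the second cryptochrome and like Cry1 a repressor, did not follow this order. It stood at 17.4, 18.1 and 14.0 FPKM for libraries 1, 2 and 3 of the non-pregnant group and at 14.7, 14.9 and 18.4 FPKM for those of the pregnant group. Its lowest value was in non-pregnant library 3, where the other 5 genes were highest, and its highest in pregnant library 3, where Arntl and Npas2 were lowest. Means were 16.5 ± 2.18 and 16.03 ± 2.09 FPKM (SD, n = 3 each), with a log2 change of -0.04 ± 0.123 (SE). That change was between 0.00 and 0.03 without non-pregnant library 1 or 2 or without pregnant library 1 or 2. It was -0.14 without non-pregnant library 3 and -0.14 without pregnant library 3. Its exons share 295 bases, 4.67% of their length, with D930015M05Rik on the other strand, and the labels do not state how such reads were assigned.

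Nfil3 (ENSMUSG00000056749, chromosome 13, 52967209 to 52981073), the D-box repressor, had the highest mean FPKM of the 6 in both groups. It stood at 26.5, 16.7 and 36.2 FPKM for libraries 1, 2 and 3 of the non-pregnant group and at 26.2, 23.1 and 20.5 FPKM for those of the pregnant group. The libraries stood in the same order as for Cry1, an order found for 0.543% of all tested genes, and the pregnant values again lay inside the non-pregnant range. Means were 26.5 ± 9.73 and 23.3 ± 2.90 FPKM (SD, n = 3 each), with a log2 change of -0.12 ± 0.243 (SE) that was 0.13 without non-pregnant library 3.

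By mean level in the non-pregnant group the order was Nfil3, Cry2, Cry1, Arntl, Npas2 and Clock, in the pregnant group Nfil3, Cry2, Cry1, Clock, Npas2 and Arntl. In the non-pregnant group Arntl and Npas2, at 10.1 and 9.43 FPKM, lay within their own SDs of Cry1 (10.3 FPKM) and Clock (6.55 FPKM). Cry1 and Clock differed by more than either of their own SDs (3.67 and 1.74 FPKM). Cry1 was above Clock in each non-pregnant library, at 10.7, 6.49 and 13.8 against 6.30, 4.95 and 8.41 FPKM. In the pregnant group Clock, Npas2 and Arntl, at 6.07, 5.03 and 4.58 FPKM, likewise lay within the SDs of the last 2, while Nfil3, Cry2 and Cry1 stood apart from their neighbours by more than either SD.

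For pregnant against non-pregnant, the limma fit over all genes called 0 of the 6 genes, and the same fit called 10 of 11412 genes (0.0876%). That count over all genes was 0 without non-pregnant library 1 or 3 and without pregnant library 1 or 2, and leaving out non-pregnant library 2 gave 91 higher and 42 lower. At an unadjusted p under 0.05 it counted 0 of the 6 genes, against 13.4% of all tested genes, and limma-voom on the recovered fragments called 0 of the 6 (0.00876% of all genes) and had 0 of them at an unadjusted p under 0.05. With array weights, which called 11.4% of all genes, 0 of the 6 were called. All 6 group means were lower in the pregnant group, and for 0 of the 6 did the groups separate without overlap, as they did for 22.1% of all tested genes. The genes were chosen with these values known, so nothing is read from those counts. In bulk samples, fewer cells of a type and less RNA per cell cannot be told apart.

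**Figure D2:**
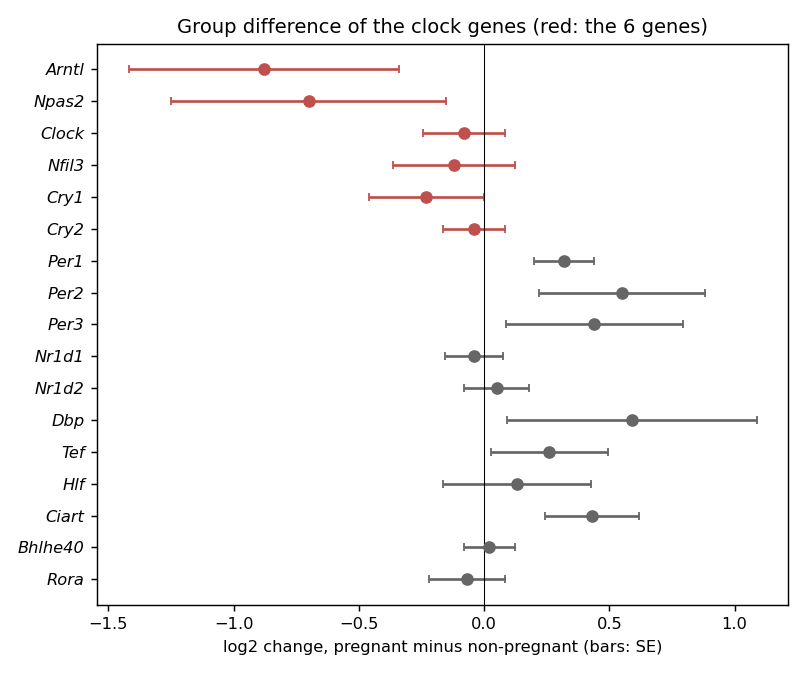
Log2 change, pregnant minus non-pregnant on the log2(FPKM + 1) scale (horizontal axis), with its SE from the limma fit, for the 6 genes (red) and other tested clock genes (grey), 3 libraries per group. All 6 red points lie below 0, from -0.88 for Arntl to -0.04 for Cry2, with the widest bars at Arntl and Npas2.

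What set Arntl and Npas2 apart was the distance between libraries of the same group. Among the pregnant libraries the highest Arntl value was 3.83 times the lowest (95% exact counting interval 3.41 to 4.32) and the highest Npas2 value 3.98 times the lowest (3.44 to 4.60), where the median tested gene had 1.13. Ranked by their range of log2(FPKM + 1) within the pregnant group, Npas2 was at place 2 and Arntl at place 4 of 11412 genes. Among the non-pregnant libraries the ratios were 5.06 for Arntl and 5.12 for Npas2, against a median of 1.24, at places 72 and 76. Without molecular identifiers the intervals cover no more than counting error, and they rest on 351 to 4838 fragments of Arntl and 235 to 2702 of Npas2 per library.

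The remaining 4 genes varied less. Within the pregnant group the highest value was 1.22 times the lowest for Clock, 1.28 for Nfil3, 1.299 for Cry1 and 1.25 for Cry2, and within the non-pregnant group 1.70, 2.16, 2.13 and 1.29. Over all 6 libraries the highest Arntl value was 9.91 times the lowest and the highest Npas2 value 8.26 times the lowest, against 1.70 for Clock and 1.31 for Cry2. The mean of Arntl in the pregnant group was 0.453 times that in the non-pregnant group, a smaller step than the one between the highest and lowest library inside either group.

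**Figure D3:**
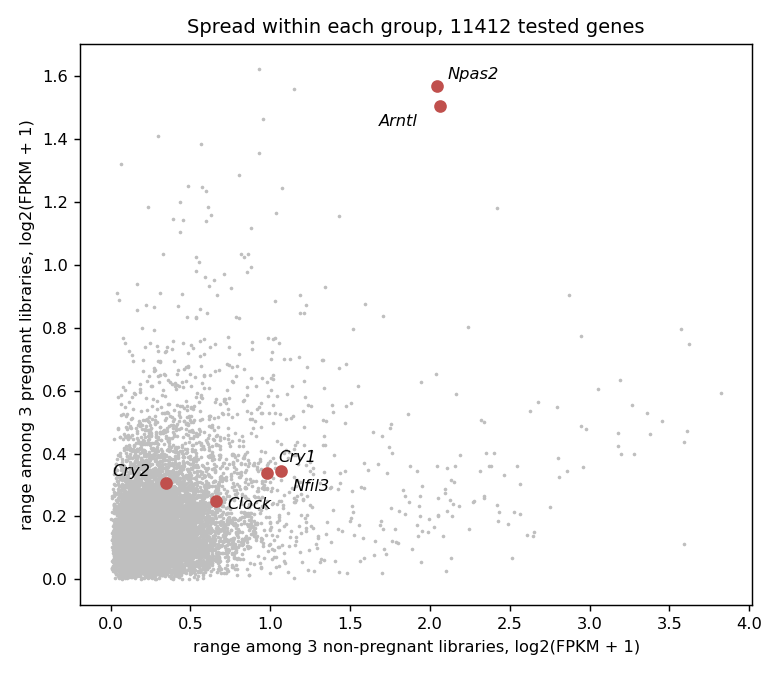
Range of log2(FPKM + 1) among the 3 non-pregnant libraries (horizontal axis) against the range among the 3 pregnant libraries (vertical axis) for 11412 tested genes (grey), with the 6 genes in red. Npas2 (2.04 and 1.57) and Arntl (2.06 and 1.503) lie far from the bulk on both axes. Clock, Cry1, Cry2 and Nfil3 lie between 0.25 and 0.34 on the vertical axis, where the median gene lies at 0.15. On the horizontal axis they lie at 0.66, 0.98, 0.35 and 1.07, and the median gene at 0.26.

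Relative to the mean of the 6 libraries, Arntl deviated by 0.45, -0.59 and 1.47 on the log2(FPKM + 1) scale in non-pregnant libraries 1, 2 and 3 and by 0.21, -0.25 and -1.29 in pregnant libraries 1, 2 and 3. Npas2 deviated by 0.54, -0.76 and 1.28 and by 0.31, -0.12 and -1.25 in the same libraries. Nfil3 and Cry1 had the same sign as Arntl in every library with smaller values, from -0.51 to 0.56 and from -0.43 to 0.55. Cry2 had the sign opposite to Arntl in 4 of the 6 libraries, with values from -0.19 to 0.18.

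Because FPKM is per length, paralogs can be compared within a library as far as the exon length used fits the transcripts made. The length of all annotated exons together was 13727 bases for Clock, 4791 for Npas2 and 7523 for Arntl. Which transcripts were present was not tested. How a ratio differs between libraries does not depend on the length used. Npas2 was at 1.45, 0.632 and 1.91 times the level of Clock in non-pregnant libraries 1, 2 and 3 and at 1.19, 0.846 and 0.366 times in pregnant libraries 1, 2 and 3. Which of the CLOCK-type partners had the higher FPKM thus differed between libraries of the same group. Npas2 over Arntl stayed between 0.866 and 1.13 in all 6 libraries. Cry1 reached 0.983 of the level of Cry2 in non-pregnant library 3 and 0.358 in non-pregnant library 2, and lay between 0.4001 and 0.651 in the pregnant libraries. Arntl2, the paralog of Arntl, was below the test filter, at 0.674 ± 0.139 and 0.708 ± 0.174 FPKM (SD, n = 3 each).

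**Figure D4:**
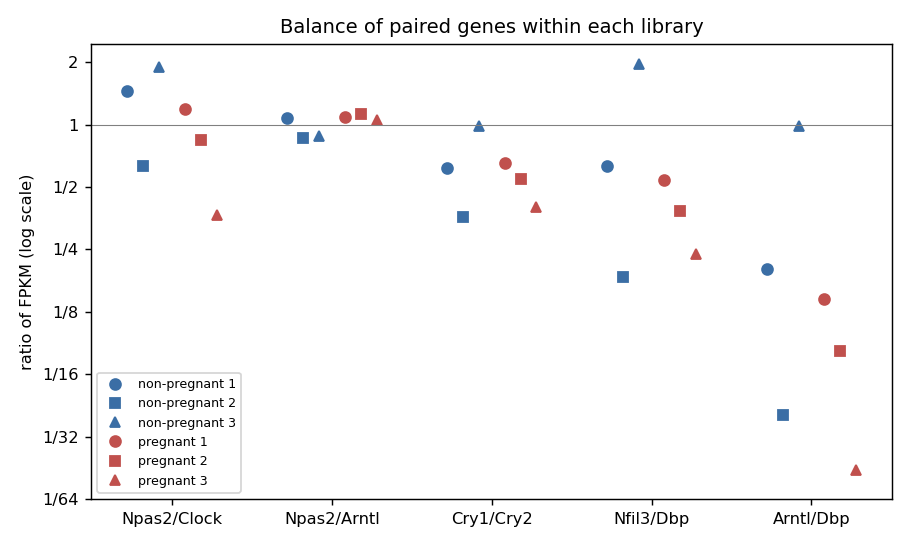
Ratio of FPKM values within each library (vertical axis, log scale) for 5 pairs of genes; blue markers are non-pregnant and red markers pregnant libraries, and the shape gives the library number. Npas2/Arntl stays near 1, whereas Arntl/Dbp runs from 0.0215 in pregnant library 3 to 0.988 in non-pregnant library 3.

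The clock repressors and phase-opposed outputs (11 genes, 10 tested) held 0 members called higher and 0 called lower by limma (smallest adjusted p = 0.338), and 1, Per1, at an unadjusted p under 0.05. That limit was passed by 13.4% of all tested genes. Of the 10, 9 had a log2 change above 0, with a median of 0.29, where the median of all tested genes was -0.02. The median of the list was 0.08 without non-pregnant library 3, 0.11 if pregnant library 3 was dropped and 0.44 if non-pregnant library 2 was. Per1, Per2 and Per3 encode the period proteins that repress together with the cryptochromes. Per1 was the 1 period gene whose groups did not overlap, at 55.3, 48.9 and 46.5 FPKM for the non-pregnant group and 60.7, 55.7 and 73.6 FPKM for the pregnant group (log2 change 0.32 ± 0.120, SE; limma adjusted p = 0.338). Groups did not overlap for 22.1% of all tested genes. Per2 was at 19.3, 33.3 and 13.7 against 24.5, 26.1 and 45.6 FPKM, and Per3 4.60, 9.14 and 3.003 FPKM against 5.32, 6.43 and 11.04 FPKM. Both had the 6 libraries in exactly the reverse order of Arntl, as did 0.473% of all tested genes, and limma adjusted p was 0.461 for Per2 and 0.569 for Per3.

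Dbp, the D-box activator, was at 42.2, 91.2 and 18.5 FPKM for the non-pregnant group and 48.8, 60.0 and 85.8 FPKM for the pregnant group (log2 change 0.59 ± 0.499, SE; limma adjusted p = 0.588). It was lowest where Arntl was highest, in non-pregnant library 3. The ratio of Nfil3 to Dbp was 1.96 there and between 0.183 and 0.629 in the other 5 libraries. Ciart, a circadian repressor, was at 2.24 ± 0.925 and 3.25 ± 0.227 FPKM (SD, n = 3 each; limma adjusted p = 0.377).

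The REV-ERB genes, whose products repress Arntl, spread less than Arntl and somewhat more than the median tested gene. The highest value within a group was 1.27 times the lowest for both genes in the non-pregnant group, and in the pregnant group 1.15 times for Nr1d1 and 1.31 times for Nr1d2. Nr1d1 was at 175, 141 and 138 FPKM for the non-pregnant group and 158, 142 and 138 FPKM for the pregnant group, and Nr1d2 at 32.9, 32.7 and 25.9 against 27.7, 30.9 and 36.2 FPKM (limma adjusted p of 0.867 and 0.865). The 2 libraries at the ends of the Arntl range, non-pregnant library 3 and pregnant library 3, both held Nr1d1 at 138 FPKM. Nr1d2 was lowest of the 6 libraries in non-pregnant library 3, at 25.9 FPKM, and highest in pregnant library 3, at 36.2 FPKM, the reverse of Arntl.

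Rora, which encodes a receptor that activates Arntl, was at 26.5, 20.5 and 31.0 FPKM for the non-pregnant group and 27.1, 24.9 and 21.4 FPKM for the pregnant group, highest in non-pregnant library 3 like Arntl (log2 change -0.07 ± 0.152, SE; limma adjusted p = 0.835). The groups overlapped.

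The clock kinases, ligases and modifiers (20 genes, 19 tested) held 0 called members (smallest limma adjusted p = 0.362), 1 at an unadjusted p under 0.05 (13.4% of all tested genes), 8 of 19 log2 changes above 0 and a median of -0.02. Nampt, which makes the NAD precursor that feeds back on the clock through SIRT1, was at 9.03 ± 0.224 and 10.4 ± 0.766 FPKM (SD, n = 3 each; limma adjusted p = 0.362). The kinase Gsk3b was at 28.5 ± 0.998 and 31.5 ± 0.492 FPKM and Wdr5 at 17.9 ± 2.11 and 15.5 ± 1.19 FPKM.

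**Figure D5:**
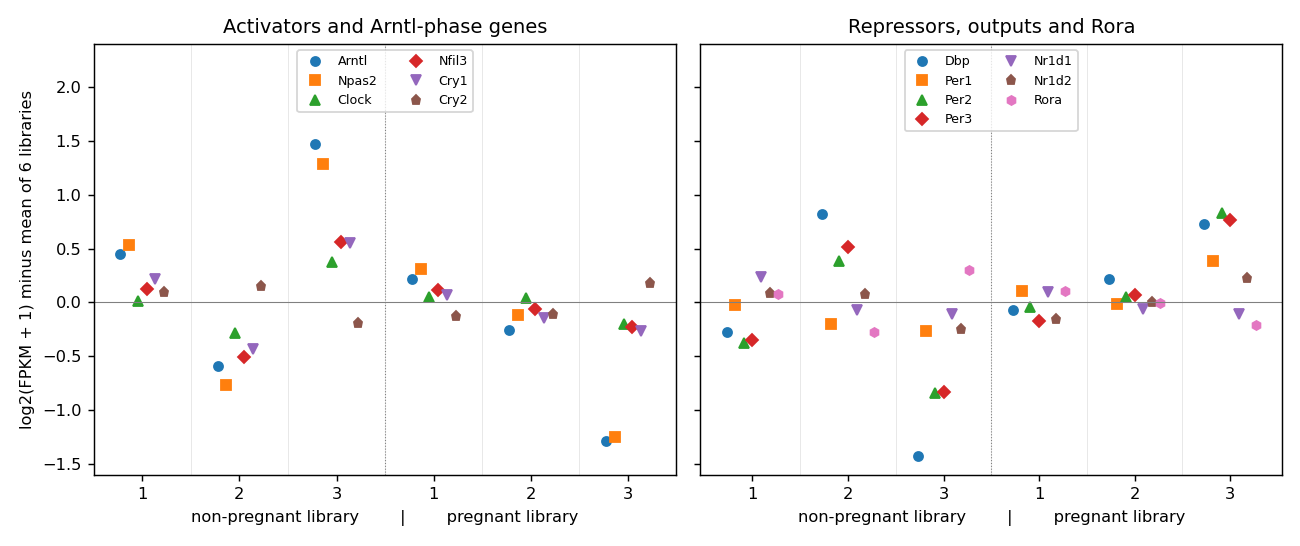
Deviation of log2(FPKM + 1) from the mean of the 6 libraries (vertical axis) in each library (horizontal axis) for the 6 genes (left) and 7 other clock genes (right); each point is 1 library. Arntl reaches 1.47 in non-pregnant library 3 and -1.29 in pregnant library 3, and Dbp, Per2 and Per3 lie on the other side of 0 in both.

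Likeness to Arntl was measured as the root mean square difference between log2(FPKM + 1) profiles over the 6 libraries, each centred on its mean, among 11174 tested genes with a name. Npas2 was the nearest gene (0.131), followed by Txnip, Lcn2, Lpl and Pllp (0.318 to 0.351). Nearest to the mirror image of Arntl were Dbp (0.263), Nsdhl (0.332), Per2 (0.350), Ccnd1 (0.352) and Per3 (0.353). Txnip, which encodes the thioredoxin-interacting protein, was at 603, 402 and 1314 FPKM for the non-pregnant group and 363, 430 and 241 FPKM for the pregnant group, and Nsdhl, a sterol synthesis enzyme, at 7.21, 14.7 and 3.70 against 12.8, 13.8 and 17.4 FPKM. Among the 5 genes most like Arntl, 1 was kept without non-pregnant library 3, 1 without pregnant library 3 and 2 without non-pregnant library 2. Npas2 stayed at place 1 when any library but pregnant library 3 was left out, and was at place 2 without that library. Dbp stayed at place 1 of the mirror image except at place 4 without non-pregnant library 3 and without pregnant library 1.

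Nfil3 and Cry1 were each among the 3 nearest genes of the other, at a distance of 0.0622. The other near genes were Cntf (0.0569) and Cd14 (0.0854) for Nfil3, and Hr (0.0701) and Cd14 (0.0764) for Cry1. Cd14, a co-receptor for lipopolysaccharide, was at 39.4, 24.5 and 46.5 FPKM for the non-pregnant group and 33.2, 33.0 and 29.1 FPKM for the pregnant group. Lpl and Lcn2 followed Arntl as the nearest genes of Npas2. The excursions of Clock and Cry2 (0.211 and 0.148, root mean square) were under 0.3 and no near genes were sought for them.

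Defining markers of biliary epithelium were high, with Spp1 (3941 to 5941 FPKM), Krt19 (220 to 386 FPKM), Sox9 (276 to 332 FPKM) and Epcam (182 to 195 FPKM) over the 6 libraries. The hepatocyte gene Alb was also present, at 1973 to 2550 FPKM, and the hepatocyte list (12 genes) summed to 3199 to 3863 FPKM in the non-pregnant group and 2786 to 3111 FPKM in the pregnant group. That sum was highest in non-pregnant library 3 and lowest in pregnant library 3, the same end libraries as for Arntl and Npas2, while the libraries between them stood in another order. Macrophage markers (13 genes, none at 0) summed to 57.8 to 90.9 and 114 to 191 FPKM, with Cd5l at 0.363 to 1.40 and 9.29 to 20.1 FPKM and Clec4f at 0.299 to 1.51 and 5.90 to 18 FPKM. Their sum was lowest in non-pregnant library 3 and highest in pregnant library 1, another order than that of any of the 6 clock genes. Endothelial markers (8 genes, none at 0) summed to 167 FPKM in non-pregnant library 2 and to between 11.7 and 24.7 FPKM in the other 5. Arntl was lowest of the non-pregnant group in library 2, and lowest of all in pregnant library 3, whose endothelial sum was 15.1 FPKM. Whether endothelial RNA bears on the Arntl values was not tested.

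Biliary markers (12 genes) summed to 5624 to 7199 FPKM in the non-pregnant group and 7737 to 8223 FPKM in the pregnant group, lowest in non-pregnant library 3. Stellate cell markers (8 genes, none at 0 but 4 below 1 FPKM in every library) summed to 11.8 to 15.0 and 8.98 to 11.5 FPKM. Lymphocyte markers (8 genes) summed to 1.66 to 2.14 and 3.09 to 3.76 FPKM. Of these 8 lymphocyte genes, 7 were below 1 FPKM in every library, and Cd3g, Cd79b, Ms4a1, Nkg7 and Klrb1c were at 0 in some libraries. Immediate-early and stress genes (10 genes) summed to 3408, 2678 and 3799 FPKM for libraries 1, 2 and 3 of the non-pregnant group and 3523, 2964 and 3686 FPKM for those of the pregnant group, and Fos to 521, 425 and 641 against 517, 458 and 472 FPKM. The sum and Fos were highest in non-pregnant library 3 and lowest in non-pregnant library 2, the highest and lowest libraries of Cry1, Clock and Nfil3. Pregnant library 3 had the next highest sum, whereas Cry1, Clock and Nfil3 were next to lowest there. Of the 10 stress genes, 5 were highest in non-pregnant library 3. The part of cell composition, stress genes and time of collection in the values of the 6 clock genes was not tested.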

How the data were processed

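RNA of sorted biliary epithelial cells was sequenced in 6 libraries, 3 per group, and groups and replicate numbers were read from the sample titles. The authors deposited FPKM values for 21700 genes in 1 table. Per the submitters' processing notes the build was mm10 and the tools were STAR 2.7.9a, HTSeq 0.13.5, DESeq2 1.30.1 and cutadapt 3.4, with no role given. Whether reads were counted by strand is not given in the sources used here.

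Fragments were recovered as FPKM times the GENCODE M21 union exon length, divided by 1 step per library. Of the values above 0, 98.5% came out whole within 0.01. The 11412 genes averaging 1 FPKM or more were fitted as log2(FPKM + 1), a pseudocount of 1 FPKM, with limma 3.58.1 (trended empirical Bayes, two-sided, Benjamini-Hochberg over all genes tested, threshold 0.05) in R 4.3.3, after the fit had been tested on simulated data. A pseudocount understates changes of low genes. Tables and figures used Python 3.11.15, pandas 2.3.3, scipy 1.17.1 and matplotlib 3.10.9.

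The 6 genes and all lists were chosen with earlier results of these data known, so the 6 genes are described with no p-value of their own. They were part of the fit over all genes, and their calls are given as counts only. The text names these genes, the clock genes Per1, Per2, Per3, Nr1d1, Nr1d2, Dbp, Arntl2 and Rora, clock genes past the threshold, up to 4 per clock list by smallest p, the genes most like a member, and Krt19, Epcam, Sox9, Spp1, Cd5l, Clec4f, Alb and Fos. Some results that this rule names are not reported here. Within a group every pair of libraries differed by more than sampling noise, with a chi-square per degree of freedom from 8.14 to 100.8. The alternatives tried were other pseudocounts, filters, scalings, empirical Bayes settings and array weights, a replicate block, limma-voom on recovered fragments and leaving out each library.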

Additional observations from a re-analysis of the deposited data

How the results depend on the processing

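Over 17 alternatives each, the log2 change of Arntl lay between -1.40 and -0.37, of Npas2 between -1.26 and -0.24 and of Cry1 between -0.50 and -0.01. The lowest of these came without non-pregnant library 2 and the highest without non-pregnant library 3. That of Clock lay between -0.23 and 0.10, of Nfil3 between -0.41 and 0.13 and of Cry2 between -0.15 and 0.03. The sign of the main value held in 15 of 17 alternatives for Clock, 16 for Nfil3 and 13 for Cry2. None of the 6 was called in any of them. Scaling by median ratios moved every level of the 6 genes by less than the SD of its group.

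Counts over all genes moved much more than this, and the cause was not tested. Against 7 higher and 3 lower, limma called 0 with no filter (2258 at an unadjusted p under 0.05) and 2 higher and 3 lower with robust empirical Bayes. It called 720 higher and 581 lower with array weights, and 1 higher and 0 lower with limma-voom (1482 at an unadjusted p under 0.05). Leaving out 1 library gave 0 to 91 higher and 0 to 42 lower, with 0 of either when non-pregnant library 1, non-pregnant library 3, pregnant library 1 or pregnant library 2 was dropped (857 to 1419 at an unadjusted p under 0.05). With array weights 1 gene of the repressor list, Ciart, was called. The replicate block called 13 higher and 0 lower (1230 at an unadjusted p under 0.05). Deviations of same-numbered libraries of the groups correlated at 0.07, 0.02 and -0.14, and those of differently numbered libraries at -0.15 to 0.10. The labels do not say whether same-numbered libraries share more than a number, and a shared day or batch was not tested.

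Of the 5 genes most like Arntl, 3 were kept with a pseudocount of 0.1 FPKM, and 1 to 5 when 1 library was left out, an alternative chosen after seeing the data. For the mirror image 2 to 5 were kept. With 3 libraries per group, 1 library can decide a group mean.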

Other observations

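The 5 genes with the widest range among the pregnant libraries were Ctrb1, Npas2, C1qb, Arntl and Clec4f, a choice made with their values in view. Ctrb1, which encodes the pancreatic protease precursor chymotrypsinogen B, was at 4.28, 1.84 and 7.74 FPKM in pregnant libraries 1, 2 and 3 and at 1.07, 0.527 and 1.91 FPKM in the non-pregnant ones. C1qb, a macrophage complement gene, was at 17.6, 11.4 and 5.30 FPKM in pregnant libraries 1, 2 and 3. Like Arntl and Npas2 it was lowest in pregnant library 3 and highest in pregnant library 1, but in the non-pregnant libraries it was lowest in library 3 (0.261 FPKM), where both clock genes were highest.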
